A study of Homo sapiens with 20 samples.

Results

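PRC1.1 is the variant Polycomb repressive complex that is built around the corepressor BCOR. The 10 genes described here encode its core subunits and an enzyme that associates with it: BCOR, BCORL1, PCGF1, KDM2B, RING1, RNF2, RYBP, YAF2, SKP1 and USP7. They were chosen by gene symbol in the deposited count table, where the transcript with the most reads stood for each of 27896 symbols. All 10 had enough reads to be tested, among 16432 genes tested.

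Polycomb complexes of the first class place ubiquitin on histone H2A through the RING-type ligases RING1 and RNF2 (RING1B), and each variant is set by the PCGF protein in it. In PRC1.1 this is PCGF1, which binds BCOR or its paralog BCORL1, while KDM2B reads unmethylated CpG dinucleotides and so brings the complex to CpG islands, with SKP1 bound to its F-box. RYBP or YAF2 stimulates the ligase, and USP7 is a deubiquitinase found with the complex.

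The cells were HEK293-GR, a derivative of the human embryonic kidney line HEK293 with constitutive expression of the glucocorticoid receptor (GR). A non-targeting siRNA pool (siNON) or a pool against BCOR (siBCOR) was transfected at 20 nM for 72 h, and 100 nM dexamethasone (dex), a synthetic glucocorticoid, or ethanol vehicle was given for 6 h. All 4 groups were in medium stripped of steroids, and each had 4 poly(A) RNA libraries, which the labels call biological replicates. BCOR ChIP-seq came from cells given dex or vehicle for 1 h, with 2 libraries per treatment and no siRNA in the labels. The promoter that drives the receptor and whether the line is 1 clone are not given in the sources used here, and the siRNA was a pool, so single siRNAs were not compared.

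The promoters of 5 genes on which the results turn are given first. They are windows from 250 bases before to 50 bases after a start of transcription, from RefSeq on GRCh38.p14, written 5′ to 3′ on the gene's strand with each CpG dinucleotide in capitals. KDM2B, RYBP and YAF2 are shown because each had a BCOR peak within 1 kb of its start. RING1 and RNF2 are shown because they are the paralogous ligases, and with the siRNA in dex RING1 fell while RNF2 rose. The peaks are on hg19, so they were not placed on these windows. For KDM2B the window is at the most upstream of its 4 RefSeq starts. The windows lie at chr12:121580974-121581273 (KDM2B, minus strand), chr3:72446574-72446873 (RYBP, minus strand), chr12:42238199-42238498 (YAF2, minus strand), chr6:33208250-33208549 (RING1, plus strand) and chr1:185045308-185045607 (RNF2, plus strand).
KDM2B: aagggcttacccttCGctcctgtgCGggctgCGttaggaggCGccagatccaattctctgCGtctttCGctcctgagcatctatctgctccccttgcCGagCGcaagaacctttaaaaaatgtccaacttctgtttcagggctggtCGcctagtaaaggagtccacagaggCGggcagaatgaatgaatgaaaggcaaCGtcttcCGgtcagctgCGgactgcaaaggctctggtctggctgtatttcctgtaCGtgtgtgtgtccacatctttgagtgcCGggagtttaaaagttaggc
RYBP: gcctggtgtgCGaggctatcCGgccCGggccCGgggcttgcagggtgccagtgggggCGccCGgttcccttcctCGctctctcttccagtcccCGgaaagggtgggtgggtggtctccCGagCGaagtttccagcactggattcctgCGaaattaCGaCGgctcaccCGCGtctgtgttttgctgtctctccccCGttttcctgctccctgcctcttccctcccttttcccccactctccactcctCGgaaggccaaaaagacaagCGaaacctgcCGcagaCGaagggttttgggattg
YAF2: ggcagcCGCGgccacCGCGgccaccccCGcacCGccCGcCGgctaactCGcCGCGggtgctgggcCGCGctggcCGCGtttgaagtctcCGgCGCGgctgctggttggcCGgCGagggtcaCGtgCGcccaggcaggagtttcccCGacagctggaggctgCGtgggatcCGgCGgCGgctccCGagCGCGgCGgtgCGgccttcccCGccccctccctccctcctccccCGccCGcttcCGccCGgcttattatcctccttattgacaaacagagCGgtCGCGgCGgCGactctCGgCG
RING1: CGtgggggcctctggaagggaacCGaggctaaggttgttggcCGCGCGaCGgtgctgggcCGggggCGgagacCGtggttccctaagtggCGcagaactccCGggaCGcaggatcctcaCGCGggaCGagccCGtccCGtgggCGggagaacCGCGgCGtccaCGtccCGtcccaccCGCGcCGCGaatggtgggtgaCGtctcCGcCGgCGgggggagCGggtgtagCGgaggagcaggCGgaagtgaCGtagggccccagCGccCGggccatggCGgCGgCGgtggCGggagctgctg
RNF2: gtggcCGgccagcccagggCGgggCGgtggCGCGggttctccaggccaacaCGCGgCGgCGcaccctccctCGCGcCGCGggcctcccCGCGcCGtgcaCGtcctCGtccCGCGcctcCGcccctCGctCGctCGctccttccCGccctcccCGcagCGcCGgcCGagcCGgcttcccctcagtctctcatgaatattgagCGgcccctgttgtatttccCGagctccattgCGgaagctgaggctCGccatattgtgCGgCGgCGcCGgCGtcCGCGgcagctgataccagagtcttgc

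RING1 and RNF2 each had 41 CpG dinucleotides in the window, YAF2 had 44 and RYBP 20, beside a median of 14 over 35116 RefSeq promoters of the same length. The window printed for KDM2B had 15, and those at its other 3 starts had 46, 33 and 15. Which of these starts matches the hg19 start with the peak was not established. RefSeq gave 17 windows for the 10 genes, and 13 of them had more than the median number. The range was from 0 to 50, and both ends belonged to starts of USP7. The core of the GR site, ACANNNTGT, searched on both strands, was in 5.37% of all promoters and in 0 of the 17 windows. The core of the BCL6 site, TTCNNNGAA, was in 7.66% of all promoters and in 1 of the 17, a window of USP7. The E-box CACGTG was in 7.26% of all promoters and in 2 of the 17, that of YAF2 and 1 of BCOR. The 3 motifs do not contain each other, and a match is a description of the letters.

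The chosen transcripts held 18580294 to 28054808 reads per library. The fewest reads of any of the 10 genes in a library were 217 (YAF2) and the most 8054 (SKP1). Of 6 textbook glucocorticoid target genes, 5 rose with dex in siNON and in siBCOR cells, and KLF9, with log2 fold changes of 0.20 and 0.22, did not pass (adjusted p = 0.205 and 0.126). All 6 HEK293 markers had reads in all 16 libraries, and their summed level was 1183 to 1422 counts per 1000000 reads (CPM) in siNON vehicle, 1314 to 1404 in siNON dex, 1063 to 1236 in siBCOR vehicle and 1056 to 1123 in siBCOR dex. With the siRNA 2 of these 6 fell and 0 rose in vehicle, and 3 fell and 0 rose in dex. Of all genes 8.23% fell and 8.87% rose in vehicle, and 18.8% fell and 20.7% rose in dex. With dex against vehicle 2 of the 6 rose and 2 fell in siNON cells, beside 10.7% and 8.64% of all genes. In siBCOR cells 1 rose and 2 fell with dex, beside 10.5% and 12.5%. The part of the HEK293 markers in the results was not tested. Among the immune markers, PTPRC, CD3E, CD14 and ITGAM were at most 0.594 CPM and CD68 was at 8.54 to 15.5 CPM. The sum over the list was 12.7 to 14.7 CPM in siNON vehicle, 13.8 to 16.3 in siNON dex, 9.44 to 13.2 in siBCOR vehicle and 9.41 to 10.98 in siBCOR dex, and CD68 fell by 0.59 on the log2 scale with the siRNA in dex (adjusted p = 0.000425). Of 5 fibroblast markers, COL1A2, DCN and LUM were at most 0.475 CPM, COL1A1 was at 22.5 to 44.1 CPM and PDGFRA at 4.92 to 10.96 CPM. Their sum was 32.4 to 45.9 CPM in siNON vehicle, 28.9 to 44.6 in siNON dex, 34.4 to 50.9 in siBCOR vehicle and 31.6 to 40.9 in siBCOR dex. PDGFRA rose by 0.75 on the log2 scale with the siRNA in dex (adjusted p = 0.00038) and by 0.43 with dex in siBCOR cells (adjusted p = 0.0159). The part of these markers in the results was not tested. The 3 hepatocyte markers summed to at most 0.381 CPM.

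There were 3 libraries that stood apart from the rest of their group, and they touch most results below. The median absolute log2 difference from the group's other libraries was 0.220 in siNON dex 4, 0.209 in siNON vehicle 3 and 0.207 in siBCOR vehicle 2, and at most 0.143 in the other 13. In siNON dex 4 and siNON vehicle 3, RNF2, RYBP and YAF2 were above every other library of the group, and BCOR, BCORL1, PCGF1, KDM2B, RING1 and USP7 were below every other one. In siBCOR vehicle 2, PCGF1, RNF2, RYBP, YAF2, SKP1 and USP7 were the lowest of the group, and KDM2B and RING1 the highest. What made these libraries differ was not tested. The calls of the 10 genes without siNON dex 4 and siNON vehicle 3 stand beside the results where they differ. So do the counts of the Polycomb gene lists. Both libraries were picked for omission within these same data, and the adjusted p-values of that fit do not account for the choice. Although siBCOR vehicle 2 stood apart about as far, it was not part of that omission. It was left out alone, and the counts of the HOX and developmental gene lists without it are given below.

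The comparison of siBCOR with siNON asks what happens to the rest of the complex when BCOR RNA is depleted, and that of dex with vehicle asks how the hormone moves it. Levels are in CPM and changes are log2 fold changes ± SE. A gene was called at an adjusted p under 0.05 (edgeR's quasi-likelihood test, Benjamini-Hochberg over all genes). In vehicle, siBCOR against siNON called 3 of the 10 genes, BCOR and RING1 lower and USP7 higher, beside 17.1% of all genes. In dex it called 4, BCOR and RING1 lower and RNF2 and SKP1 higher, beside 39.5% of all genes. Dex against vehicle called BCOR alone in siNON cells, beside 19.4% of all genes, and BCOR and KDM2B, both lower, in siBCOR cells, beside 23.1% of all genes. Each of the 4 groups serves in more than 1 of these comparisons. In siBCOR against siNON in dex and in both dex comparisons the share of the 10 genes called was near the background or below it. In siBCOR against siNON in vehicle it was 3 of 10, beside 17.1%. BCOR is the target of the siRNA, so its fall in both siRNA comparisons was set by the design. The counts here and below include it. In vehicle the other calls were RING1 and USP7, and that of USP7 held in 14 of 24 alternatives.

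**Figure D1:**
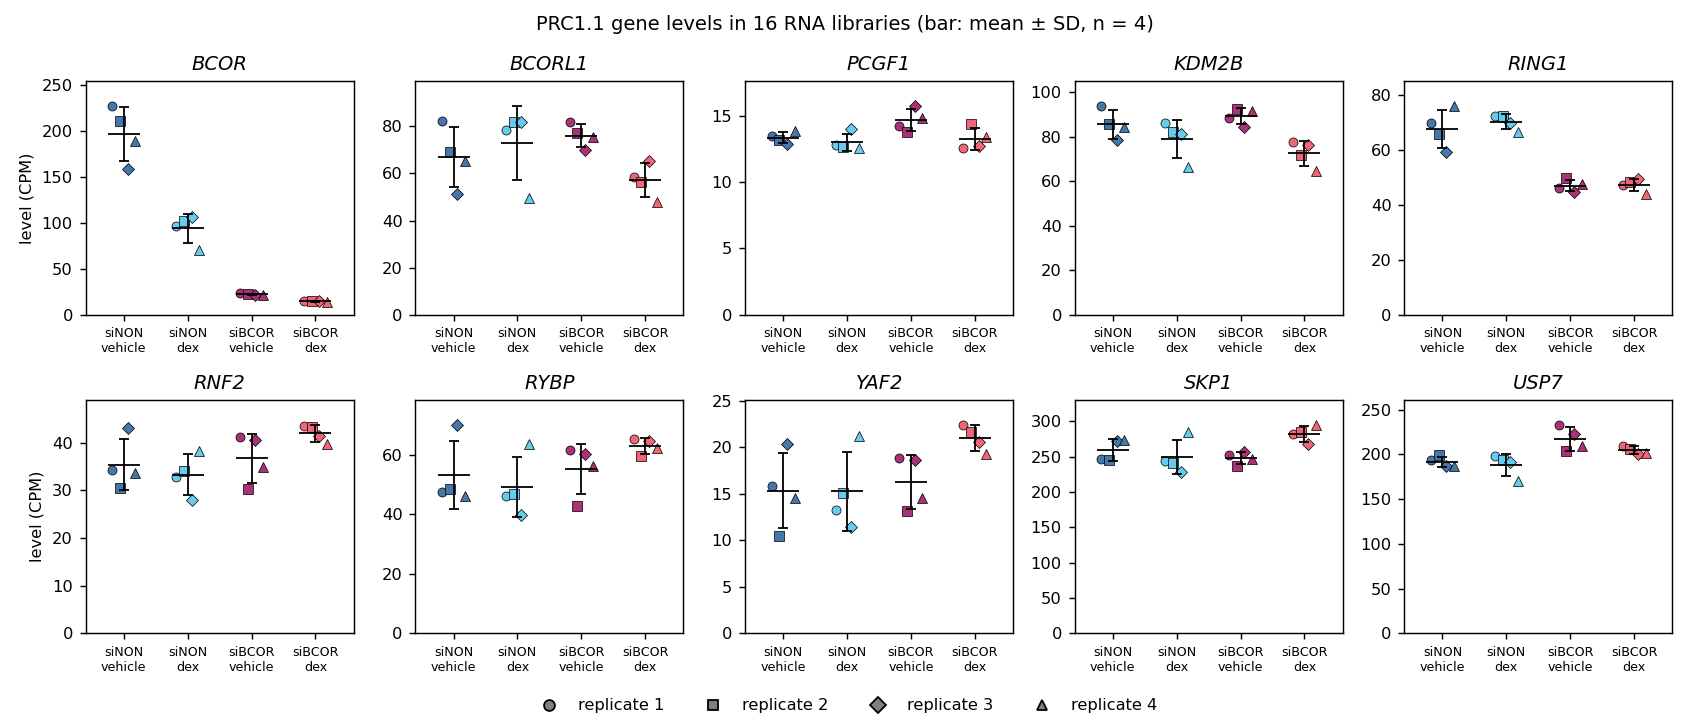
Level of each of the 10 PRC1.1 genes (CPM, linear axes) in the 16 RNA libraries, by group; symbols mark the replicate number and bars the mean ± SD of 4. BCOR lies lower in every siBCOR library (13.8 to 23.5 CPM) than in every siNON library (70.6 to 227 CPM), and RING1 likewise (43.9 to 49.6 against 59.2 to 75.8 CPM).

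BCOR, the scaffold and the siRNA target, was at 227, 210.3, 159 and 189 CPM in the 4 siNON vehicle libraries and at 96.8, 102, 106 and 70.6 CPM in siNON dex. In siBCOR cells it was at 23.5, 22.3, 21.8 and 21.9 CPM in vehicle and at 15.5, 14.8, 14.9 and 13.8 CPM in dex. None of the 4 groups overlapped another. BCOR fell by 3.13 ± 0.12 with the siRNA in vehicle (adjusted p = 1.11e-10) and by 2.67 ± 0.12 in dex (adjusted p = 1.51e-09). It fell by 1.06 ± 0.11 with dex in siNON cells (adjusted p = 1.45e-06) and by 0.60 ± 0.12 in siBCOR cells (adjusted p = 0.00155). In bulk RNA, fewer cells that express a gene and less RNA per cell cannot be told apart. The 4 annotated BCOR transcripts each counted at least 97.9% of the reads of the chosen one, so isoforms were not separated.

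BCORL1, the paralog that can take BCOR's place, was at 82.3, 68.9, 51.3 and 65.2 CPM in siNON vehicle and 78.6, 81.9, 81.6 and 49.5 CPM in siNON dex. In siBCOR cells it was at 81.97, 76.96, 69.9 and 75.5 CPM in vehicle and 58.4, 56.6, 65.3 and 47.8 CPM in dex. Every siBCOR dex library was below every siBCOR vehicle library, and the siNON groups overlapped. BCORL1 was not called in any comparison. With the siRNA the estimate was 0.18 in vehicle (95% interval -0.13 to 0.50) and -0.36 ± 0.15 in dex (adjusted p = 0.0694). With dex it was 0.12 in siNON cells (adjusted p = 0.628), and the siBCOR cells gave -0.42 ± 0.15 (adjusted p = 0.0562).

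Both negative estimates of BCORL1 were called without siNON dex 4 and siNON vehicle 3. BCORL1 then fell by 0.54 with the siRNA in dex (adjusted p = 0.000115) and by 0.41 with dex in siBCOR cells (adjusted p = 0.00126). Without siNON dex 4 alone the adjusted p was 0.00324 and 0.0118, and without siNON vehicle 3 alone 0.0297 and 0.0339. The call with dex in siBCOR cells was also gained without siNON vehicle 1 (adjusted p = 0.0443) or siBCOR dex 3 (adjusted p = 0.0487). DESeq2 called it as well (adjusted p = 0.044). In all, BCORL1 was called in 4 of 24 alternatives with the siRNA in dex and in 10 of 24 with dex in siBCOR cells.

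Per length, BCOR made up 75.9% to 77.99% of the summed BCOR and BCORL1 level in siNON vehicle, 58.5% to 62.03% in siNON dex, 24.7% to 26.3% in siBCOR vehicle and 20.7% to 24.8% in siBCOR dex. The share of BCOR in the pair was thus lower with dex in siNON cells and lower again with the siRNA, without overlap, while the siBCOR groups overlapped each other. The summed level of both was 39.7 ± 6.29 reads per kilobase of transcript per 1000000 reads (RPKM; SD, n = 4) in siNON vehicle, 24.6 ± 4.61 in siNON dex, 13.9 ± 0.791 in siBCOR vehicle and 10.1 ± 1.07 in siBCOR dex.

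PCGF1, the subunit that defines the complex, stayed between 12.6 and 15.7 CPM in all 16 libraries. It was at 13.5, 13.2, 12.9 and 13.8 CPM in siNON vehicle, 12.8, 12.7, 13.97 and 12.6 CPM in siNON dex, 14.2, 13.8, 15.7 and 14.8 CPM in siBCOR vehicle and 12.6, 14.4, 12.7 and 13.4 CPM in siBCOR dex. Each group overlapped every other. PCGF1 was not called in any comparison, and its 4 intervals lay between -0.29 and 0.28. It overlaps the antisense gene LBX2-AS1 by 23 bases, LBX2-AS1 had 43.4% as many reads, and whether counting used strand is not given in the sources used here.

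KDM2B, the CpG reader, was at 93.8, 85.5, 78.4 and 84.3 CPM in siNON vehicle and 86.2, 82.4, 81.2 and 66.5 CPM in siNON dex. The siBCOR libraries had 88.6, 92.3, 84.6 and 91.5 CPM in vehicle and 77.5, 71.6, 76.3 and 64.8 CPM in dex. Every siBCOR dex library was below every siBCOR vehicle library, while the siNON groups overlapped. KDM2B fell by 0.30 ± 0.0815 with dex in siBCOR cells (adjusted p = 0.0133), and in siNON cells the estimate was -0.11 ± 0.0814 (adjusted p = 0.388). The difference between these was not called (-0.19, adjusted p = 0.339). Without siBCOR dex 4 the change in siBCOR cells was -0.25 and missed the threshold (adjusted p = 0.0505). With the siRNA in dex KDM2B was at -0.12 (adjusted p = 0.229). It fell there by 0.24 without siNON dex 4 and siNON vehicle 3 (adjusted p = 0.00733) and by 0.20 without siNON dex 4 alone (adjusted p = 0.031).

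**Figure D2:**
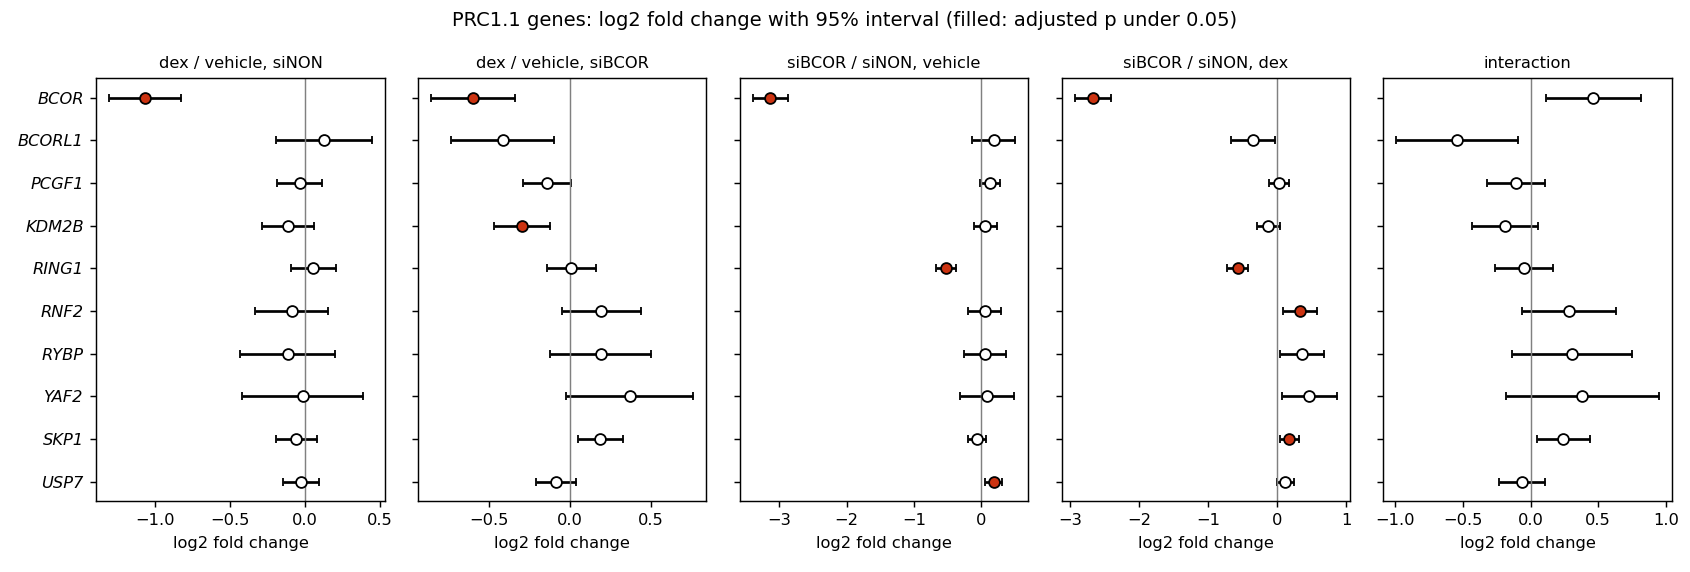
Log2 fold change of each PRC1.1 gene with its 95% interval in the 4 comparisons and in the interaction (the effect of dex in siBCOR cells minus that in siNON cells); filled points passed an adjusted p of 0.05. RING1 is filled in both siRNA comparisons (-0.53 and -0.57) and lies near 0 in both dex comparisons, and no gene is filled in the interaction.

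RING1, 1 of the paralogous H2A ubiquitin ligases, was at 69.6, 65.6, 59.2 and 75.8 CPM in siNON vehicle and 72.2, 72.1, 69.7 and 66.5 CPM in siNON dex. In siBCOR cells it was at 46.2, 49.6, 44.6 and 47.4 CPM in vehicle and 47.2, 48.4, 49.2 and 43.9 CPM in dex. Every siBCOR library was below every siNON library, whatever the hormone. RING1 fell by 0.53 ± 0.0717 with the siRNA in vehicle (adjusted p = 0.000128), a change of -30.5% (95% interval -37.4% to -22.8%), and by 0.57 ± 0.0717 in dex (adjusted p = 2.94e-05). It was called in 24 of 24 alternative fits in both comparisons, from -0.64 to -0.47 in vehicle and from -0.64 to -0.52 in dex. With dex the estimates were 0.05 (95% interval -0.10 to 0.20) in siNON cells and 0.01 (-0.14 to 0.16) in siBCOR cells. The deposited annotation gives RING1 6 copies, so how its reads were shared among copies is uncertain.

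RNF2, the other ligase, was at 34.3, 30.5, 43.03 and 33.7 CPM in siNON vehicle and 32.9, 34.1, 27.9 and 38.2 CPM in siNON dex. The siBCOR libraries had 41.1, 30.3, 40.6 and 34.9 CPM in vehicle and 43.6, 43.3, 41.5 and 39.7 CPM in dex. The siBCOR dex libraries were above all siNON dex libraries, and the vehicle groups overlapped. RNF2 rose by 0.34 ± 0.12 with the siRNA in dex (adjusted p = 0.0305), and in vehicle the estimate was 0.05 (95% interval -0.19 to 0.30). The rise in dex was lost when siNON dex 1, 2 or 3 or siBCOR dex 1, 2 or 3 was left out, with an adjusted p from 0.0516 to 0.109. The estimates stayed between 0.26 and 0.41 over the 24 alternatives.

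Per length, RING1 was 79.5% ± 3.88 (SD, n = 4) of the summed level of the pair in siNON vehicle, 81.2% ± 2.31 in siNON dex, 72.4% ± 3.67 in siBCOR vehicle and 69.7% ± 0.833 in siBCOR dex. The sum itself was 46.4 to 53.4 RPKM in siNON vehicle, 48.2 to 51.3 in siNON dex, 37.2 to 38.3 in siBCOR vehicle and 36.6 to 40.2 in siBCOR dex. The siBCOR libraries were thus lower than the siNON libraries for the sum of both ligases as well as for RING1.

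RYBP, which fills the same place beside the ligase as its paralog YAF2, was at 47.6, 48.6, 70.1 and 46.2 CPM in siNON vehicle and 46.2, 46.7, 39.9 and 63.6 CPM in siNON dex. In siBCOR cells it was at 61.5, 42.9, 60.3 and 56.04 CPM in vehicle and 65.4, 59.6, 64.5 and 62.2 CPM in dex. The highest values in the siNON groups are those of siNON vehicle 3 and siNON dex 4. RYBP was not called in any comparison, and its largest estimate was 0.36 ± 0.15 with the siRNA in dex (adjusted p = 0.0624). It rose there by 0.47 without siNON dex 4 and siNON vehicle 3 (adjusted p = 0.000437), by 0.51 without siNON dex 4 alone (adjusted p = 0.00635) and by 0.34 without siNON vehicle 3 alone (adjusted p = 0.0218). It also passed without siBCOR vehicle 2 (adjusted p = 0.0409), and in 6 of 24 alternatives in all.

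YAF2 was at 15.8, 10.5, 20.3 and 14.6 CPM in siNON vehicle and 13.3, 15.04, 11.5 and 21.2 CPM in siNON dex. The siBCOR libraries had 18.8, 13.1, 18.6 and 14.5 CPM in vehicle and 22.4, 21.7, 20.6 and 19.2 CPM in dex. The siBCOR dex libraries were above all siBCOR vehicle libraries, and of the siNON dex libraries number 4 alone reached them. YAF2 was not called in any comparison. The estimate with the siRNA in dex was 0.47 ± 0.19 (adjusted p = 0.0561), and without siNON dex 4 and siNON vehicle 3 YAF2 rose by 0.62 (adjusted p = 0.000984). It also passed there without siNON dex 4 alone (0.66, adjusted p = 0.00508), and without siNON vehicle 2, siNON vehicle 3 or siBCOR vehicle 2, with an adjusted p from 0.0287 to 0.0472, and in 8 of 24 alternatives in all. With dex in siBCOR cells YAF2 was at 0.37 (adjusted p = 0.166), and at 0.38 without siNON dex 4 and siNON vehicle 3 (adjusted p = 0.0254). Per length, RYBP was 77.8% ± 3.18 (SD, n = 4) of the sum of the pair in siNON vehicle, 76.6% ± 1.37 in siNON dex, 77.4% ± 1.44 in siBCOR vehicle and 75.2% ± 1.37 in siBCOR dex, so the group means differed by less than the SD in siNON vehicle.

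**Figure D3:**
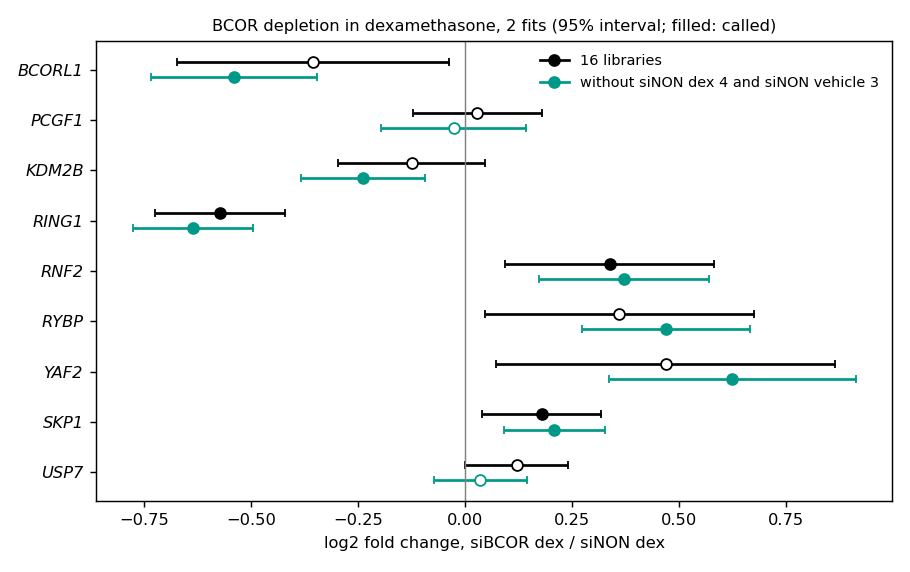
Log2 fold change of siBCOR dex against siNON dex with its 95% interval for the PRC1.1 genes other than BCOR, from all 16 libraries and without siNON dex 4 and siNON vehicle 3; filled points were called. BCORL1, KDM2B, RYBP and YAF2 are filled only without these libraries, RING1, RNF2 and SKP1 in both fits, and PCGF1 and USP7 in neither.

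SKP1, the adaptor bound by the F-box of KDM2B and of many other proteins, was at 247, 245, 272 and 273 CPM in siNON vehicle and 243, 241, 228 and 284 CPM in siNON dex. In siBCOR cells it was at 252, 236, 257 and 247 CPM in vehicle and 282, 284, 267 and 295 CPM in dex. The siBCOR dex libraries were above all siBCOR vehicle libraries, and siNON dex 4 lay among them. SKP1 rose by 0.18 ± 0.0656 with the siRNA in dex (adjusted p = 0.0401), and the estimate with dex in siBCOR cells was 0.19 ± 0.0656 (adjusted p = 0.0502). The rise with the siRNA was called in 13 of 24 alternatives. It was lost when siNON vehicle 3, siBCOR vehicle 4, siNON dex 1, 2 or 3, or siBCOR dex 1, 2 or 4 was left out, with an adjusted p from 0.051 to 0.141. It was also lost with no filter on low counts, with only the groups compared and with upper-quartile scaling, with an adjusted p from 0.0875 to 0.129. Without siNON dex 4 and siNON vehicle 3, SKP1 rose with dex in siBCOR cells as well, by 0.19 (adjusted p = 0.00746). That estimate was called in 9 of 24 alternatives, among them those without siNON vehicle 3, siNON dex 3, siNON dex 4 or siBCOR dex 3 alone, with an adjusted p from 0.0158 to 0.0487.

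USP7, the deubiquitinase, was at 193, 199, 187 and 187 CPM in siNON vehicle and 198, 194, 191 and 170.1 CPM in siNON dex. The siBCOR libraries had 233, 203, 223 and 209.8 CPM in vehicle and 209.8, 206, 201 and 202 CPM in dex. The siBCOR libraries were above the siNON libraries of the same treatment without overlap. USP7 rose by 0.18 ± 0.0571 with the siRNA in vehicle (adjusted p = 0.0371), and the estimate in dex was 0.12 ± 0.0571 (adjusted p = 0.101). The rise in vehicle was called in 14 of 24 alternatives. It was lost without siNON vehicle 1, 3 or 4 or siBCOR vehicle 1 or 3, with an adjusted p from 0.0713 to 0.237. Without siNON dex 4 and siNON vehicle 3 the estimate was 0.12 and was not called (adjusted p = 0.111). It was not called by DESeq2 (adjusted p = 0.0666), with only the groups compared (adjusted p = 0.0921), with upper-quartile scaling (adjusted p = 0.128) or with no filter on low counts (adjusted p = 0.152).

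Whether the siRNA changed the response to dex was tested by the interaction. It called 0 of the 10 genes with edgeR and 0 with DESeq2, beside 0.0974% of all genes with edgeR. At an unadjusted p under 0.05 there were 3, BCOR (0.46), BCORL1 (-0.54) and SKP1 (0.24), beside 19.3% of all genes. Without siNON dex 4 and siNON vehicle 3 these 3 were called, beside 10.8% of all genes: BCOR at 0.45 (adjusted p = 0.0195), BCORL1 at -0.56 (adjusted p = 0.022) and SKP1 at 0.30 (adjusted p = 0.0291). Without siNON dex 4 alone BCORL1 (-0.68, adjusted p = 0.0286) and SKP1 (0.31, adjusted p = 0.0299) were called, beside 15.3% of all genes.

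The omission of both libraries also moved the other counts, and the share of all genes called was higher in each comparison. With the siRNA in dex, 8 of the 10 genes were then called, beside 53.8% of all genes. With dex in siBCOR cells there were 5 (2 with all libraries) beside 34.2%, with the siRNA in vehicle 2 (3 with all libraries) beside 24.3%, and with dex in siNON cells 1 beside 20.7%.

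**Figure D4:**
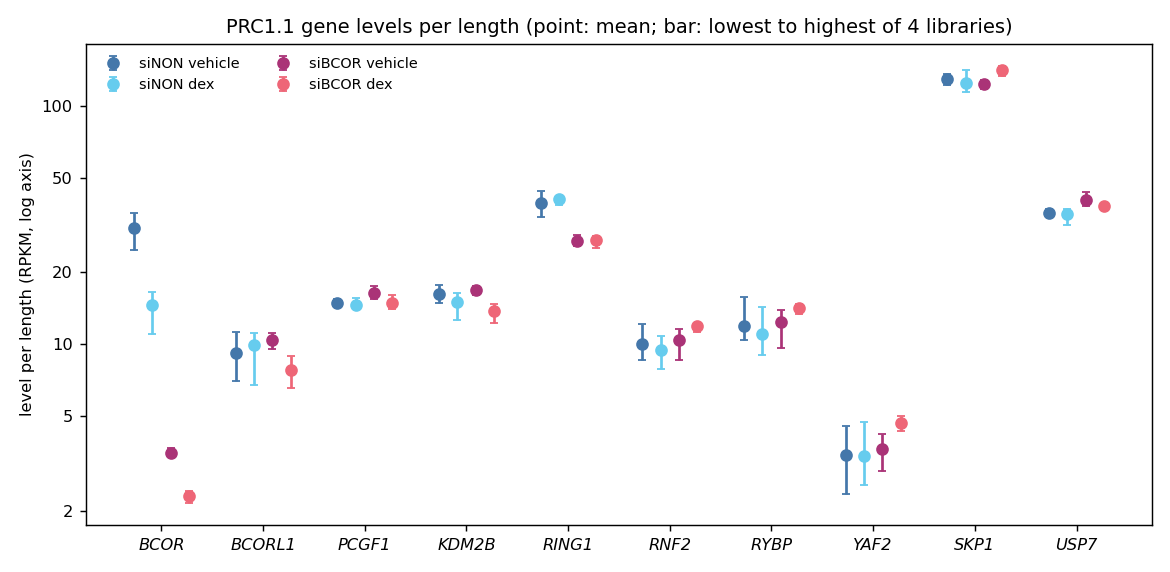
Per-length level (RPKM, log axis) of the 10 PRC1.1 genes by group; points are means and bars run from the lowest to the highest of 4 libraries. SKP1 stands above the other 9 genes in every group (124 to 141 RPKM), and BCOR goes from 30.6 RPKM in siNON vehicle to 2.30 RPKM in siBCOR dex.

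Compared per length, SKP1 was the most abundant RNA in every group, at 129 ± 7.63 RPKM (SD, n = 4) in siNON vehicle. There followed RING1 (39.1 ± 4.05), USP7 (35.6 ± 1.09) and BCOR (30.6 ± 4.58), where each overlapped the next. KDM2B (16.2 ± 1.20), PCGF1 (14.9 ± 0.449), RYBP (11.95 ± 2.56), RNF2 (9.99 ± 1.52) and BCORL1 (9.13 ± 1.74) came next, again each overlapping the next, and KDM2B lay below BCOR without overlap. YAF2 was last at 3.42 ± 0.902, below BCORL1 without overlap. In siNON dex BCOR was at 14.6 ± 2.49 RPKM, between KDM2B (14.97 ± 1.64) and PCGF1 (14.5 ± 0.731), and overlapped both. In siBCOR cells BCOR was last, at 3.49 ± 0.124 in vehicle, where it overlapped YAF2 (3.63 ± 0.643), and at 2.30 ± 0.110 in dex, below YAF2 (4.68 ± 0.309) without overlap. RING1 was there below USP7 without overlap, at 27.1 ± 1.22 against 40.4 ± 2.48 in vehicle and 27.3 ± 1.36 against 38.1 ± 0.765 in dex.

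The ChIP-seq asks where BCOR sits on chromatin and whether hormone changes it. The authors deposited 8587 peaks shared by both treatments, 3055 enriched in dex and 267 enriched in vehicle, with no strength given per peak. Of the 10 genes, 3 had a peak within 1 kb of the start of the chosen transcript (TSS), beside 20.3% of all genes tested. KDM2B had a dex-enriched peak over its start, at chr12:122018652-122018986 on hg19, with its centre 101 bases downstream. A dex-enriched peak within 1 kb was found at 1.16% of all genes. KDM2B RNA after 6 h of dex had the estimates given above, -0.11 in siNON cells, not called, and -0.30 in siBCOR cells.

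RYBP had a shared peak centred 875 bases upstream (chr3:72496490-72496808), and YAF2 a shared peak centred 904 bases downstream, inside the gene (chr12:42631099-42631433). A shared peak within 1 kb was found at 18.4% of all genes. YAF2 also had a dex-enriched peak centred 2668 bases downstream (chr12:42629335-42629669). RYBP and YAF2 were 2 of the 10 genes, a share near that of all genes. For the ligases, the nearest edge of any peak was 39.9 kb from the start of RING1 and 71.2 kb from that of RNF2.

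Within 50 kb, 8 of the 10 genes had a peak, beside 54.3% of all genes. BCOR had 3 shared peaks 11.6, 11.9 and 48.9 kb upstream of the chosen start, inside its longer transcripts. KDM2B had 3 shared peaks besides, 10.2 and 45.8 kb upstream and 42.6 kb downstream inside the gene. SKP1 had a shared peak 7.2 kb upstream. PCGF1 and RING1 had a shared peak 24.2 kb and 40.1 kb downstream of the start, outside the gene, and USP7 had a dex-enriched peak 17.9 kb downstream inside the gene. BCORL1 and RNF2 had none. The nearest vehicle-enriched peak to any of the 10 genes was 440.6 kb away, from KDM2B.

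**Figure D5:**
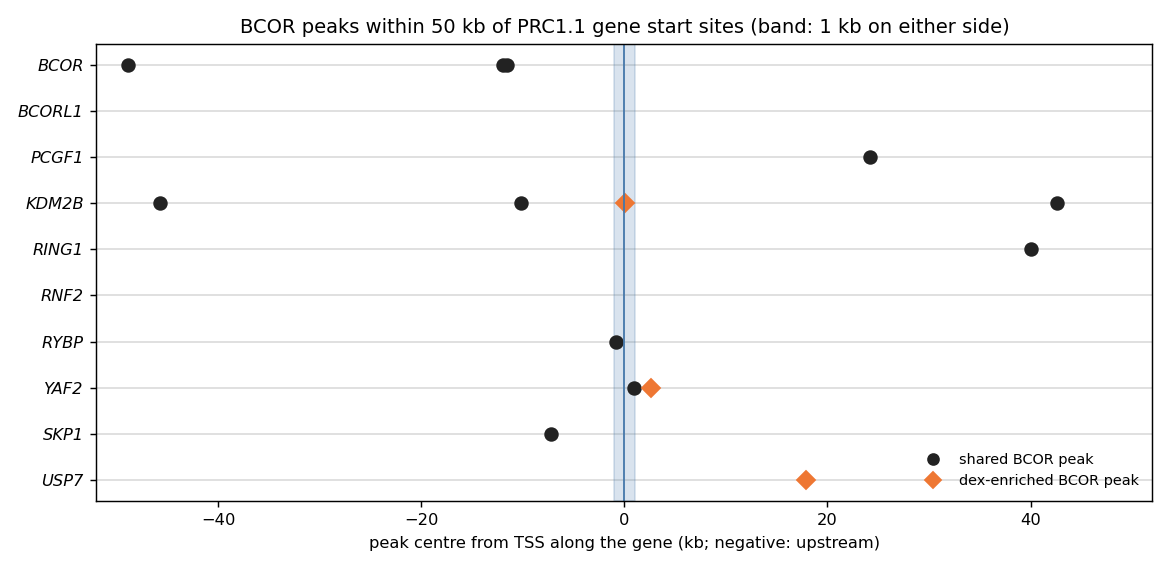
Centres of the deposited BCOR peaks within 50 kb of each gene's TSS (x axis: distance along the gene in kb, negative upstream), by peak list. KDM2B, RYBP and YAF2 have a peak within 1 kb, and BCORL1 and RNF2 have none in the plot.

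The other Polycomb genes were counted from lists of textbook members. These lists and those below were chosen with earlier results of these data known, so their counts are a description. Of 21 other subunits of the first class, siBCOR against siNON called 2 higher and 4 lower in vehicle and 4 higher and 8 lower in dex, with medians of -0.05 and -0.16 beside 0.02 over all genes in each. All genes were called higher in 8.87% and lower in 8.23% in vehicle, and in 20.7% and 18.8% in dex. With siNON dex 4 and siNON vehicle 3 omitted, the counts were 3 higher and 6 lower in vehicle and 5 higher and 12 lower in dex, beside 9.22% and 15.1% of all genes and 26.5% and 27.3%. PCGF5, which defines another variant complex, was at 40.6 ± 13.7 CPM (SD, n = 4) in siNON vehicle and 11.4 ± 2.69 in siBCOR vehicle, and fell by 1.83 (adjusted p = 9.9e-05). PHC2, a polyhomeotic subunit of canonical complexes, fell by 0.45 in vehicle (adjusted p = 0.00259) and by 0.75 in dex (adjusted p = 2.08e-05). CBX6, a chromodomain subunit, rose by 0.38 in vehicle (adjusted p = 0.00892).

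With dex, 3 of the 21 rose and 1 fell in siNON cells, beside 10.7% and 8.64% of all genes, and 1 rose and 2 fell in siBCOR cells, beside 10.5% and 12.5%. The share called was thus near the background in siNON cells and below it in siBCOR cells. With siNON dex 4 and siNON vehicle 3 left out, 2 rose and 2 fell in siNON cells, and 1 rose and 3 fell in siBCOR cells. All genes then rose in 10.6% and 18.8% and fell in 10.1% and 15.4%. AUTS2, a partner of PCGF3 and PCGF5 complexes, fell by 0.74 in siNON cells (adjusted p = 0.000282) and by 0.84 in siBCOR cells (adjusted p = 8.05e-05). PRC2, the complex that methylates histone H3, was covered by 12 genes. With the siRNA 2 of them rose and 0 fell in vehicle, and 2 rose and 2 fell in dex, near or below the shares of all genes (17.1% in vehicle and 39.5% in dex, both directions together). With siNON dex 4 and siNON vehicle 3 omitted, 2 rose and 1 fell in vehicle, and 5 rose and 3 fell in dex, beside 24.3% and 53.8% of all genes. EZH1, a catalytic subunit, rose by 0.37 (adjusted p = 0.001) and by 0.31 (adjusted p = 0.00165). With dex 2 rose and 1 fell in siNON cells, and 1 rose and 2 fell in siBCOR cells, beside 19.4% and 23.1% of all genes called. Without both libraries 2 rose and 3 fell in siNON cells, and 4 rose and 2 fell in siBCOR cells, beside 20.7% and 34.2%. JARID2, a PRC2 cofactor, fell by 0.28 in siNON cells (adjusted p = 0.00611) and by 0.39 in siBCOR cells (adjusted p = 0.000359).

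Of 12 genes for deubiquitinases of H2A and their partners, which act on the mark that PRC1.1 places, 2 rose and 1 fell with the siRNA in vehicle, and 4 rose and 4 fell in dex, beside 17.1% and 39.5% of all genes called. When siNON dex 4 and siNON vehicle 3 were left out, the counts in dex were 5 and 5, beside 53.8% of all genes. FOXK2, a forkhead protein that binds BAP1, was at 191 ± 16.04 CPM (SD, n = 4) in siNON vehicle, 192 ± 19.02 in siNON dex, 101 ± 8.40 in siBCOR vehicle and 92.4 ± 6.88 in siBCOR dex. It fell by 0.92 in vehicle (adjusted p = 3.15e-06) and by 1.06 in dex (adjusted p = 3.77e-07). BAP1, the catalytic subunit, rose by 0.27 in vehicle (adjusted p = 0.00244). ASXL2, its cofactor, rose by 0.51 in vehicle (adjusted p = 0.00389) and by 0.45 in dex (adjusted p = 0.0042). Of 10 other partners of SKP1, 1 rose with the siRNA in vehicle and 2 in dex, and 0 fell, shares below those of all genes (17.1% and 39.5%). FBXW11, an F-box protein, rose in vehicle by 0.20 (adjusted p = 0.0228), a call that was lost without siNON dex 4 and siNON vehicle 3. In dex FBXL5, another F-box protein, rose by 0.49 (adjusted p = 0.0109) and CUL1, the cullin that holds SKP1, by 0.20 (adjusted p = 0.0377), a call that held in 16 of 24 alternatives.

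Of 10 genes for proteins known to bind BCOR, 4 rose and 0 fell with dex in siNON cells, beside 10.7% of all genes that rose and 8.64% that fell. In siBCOR cells 4 rose and 0 fell, beside 10.5% and 12.5%. Of these 4, HDAC4 (adjusted p = 0.0422) was called in 14 of 24 alternatives and MLLT3 (adjusted p = 0.0498) in 12 of 24. With siNON dex 4 and siNON vehicle 3 omitted, 5 rose and 0 fell in siNON cells, and 5 rose and 1 fell in siBCOR cells. All genes then rose in 10.6% and 18.8% and fell in 10.1% and 15.4%. BCL6, the repressor that recruits BCOR, was at 10.7 ± 1.11 CPM (SD, n = 4) in siNON vehicle, 26.3 ± 3.09 in siNON dex, 11.9 ± 0.705 in siBCOR vehicle and 27.7 ± 1.1 in siBCOR dex. It rose with dex by 1.30 in siNON cells (adjusted p = 8.32e-09) and by 1.22 in siBCOR cells (adjusted p = 2.05e-08), while BCOR fell in either kind of cell. With the siRNA 1 rose and 1 fell in vehicle and 0 rose and 2 fell in dex, near or below the shares of all genes (17.1% and 39.5%). Without both libraries these counts were 0 and 1 in vehicle and 1 and 3 in dex, beside 24.3% and 53.8% of all genes. HDAC7, the gene that rose in vehicle, was called there in 8 of 24 alternatives. HDAC1, a histone deacetylase, fell with the siRNA by 0.29 in vehicle (adjusted p = 0.000536) and by 0.44 in dex (adjusted p = 6.4e-06).

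HOX genes, classical Polycomb targets that lie in clusters and so share neighbourhoods, were tested at 36 of 39. In siNON cells 30 fell and 2 rose with dex, and in siBCOR cells 30 fell and 1 rose, with a median of -0.86 in each, beside 8.64% and 12.5% of all genes that fell and 10.7% and 10.5% that rose. HOXA9 was at 154 ± 5.44 CPM (SD, n = 4) in siNON vehicle and 38.9 ± 2.57 in siNON dex, and fell by 1.99 (adjusted p = 1.62e-13). With the siRNA 10 rose and 1 fell in vehicle and 12 rose and 1 fell in dex. Over all genes 8.87% rose and 8.23% fell in vehicle and 20.7% rose and 18.8% fell in dex. In dex 36.1% of the HOX genes were called in either direction, below the 39.5% of all genes, but these calls were mostly rises. The HOX medians with the siRNA were 0.155 in vehicle and 0.154 in dex, beside 0.025 over all genes in each. HOXA11 rose by 0.41 in vehicle (adjusted p = 0.00122) and by 0.36 in dex (adjusted p = 0.00179). With siNON dex 4 and siNON vehicle 3 left out, the siRNA counts were 7 and 1 in vehicle and 9 and 3 in dex. All genes then rose in 9.22% and fell in 15.1% in vehicle, and in 26.5% and 27.3% in dex. In dex the share of HOX genes that rose was thus near that of all genes, and the share that fell was below it. The HOX medians in that fit were 0.058 and 0.090. With dex 31 fell in either kind of cell, beside 10.1% of all genes in siNON cells and 15.4% in siBCOR cells. Without siBCOR vehicle 2 alone the siRNA counts were 9 and 1 in vehicle and 12 and 1 in dex. All genes then rose in 10.6% and 22.7% and fell in 10.3% and 19.4%. All 36 had a BCOR peak within 50 kb of the TSS, and 8 had one within 1 kb, beside 54.3% and 20.3% of all genes, so that the share within 1 kb was near the background.

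Of 44 other developmental genes typical of Polycomb control, 2 rose and 9 fell with the siRNA in vehicle and 6 rose and 8 fell in dex, which is 25% and 31.8% of them, beside 17.1% and 39.5% of all genes called. FOXC1, a forkhead factor, fell by 0.67 in vehicle (adjusted p = 4.68e-05) and by 0.66 in dex (adjusted p = 3e-05). With dex against vehicle, 23 of the 44 fell and 2 rose in siNON cells, and 21 fell and 2 rose in siBCOR cells. Of all genes 8.64% fell and 10.7% rose in siNON cells, and 12.5% fell and 10.5% rose in siBCOR cells. The medians of the list with dex were -0.42 and -0.36. FOXC1 was among the genes that fell with dex in either kind of cell. With siNON dex 4 and siNON vehicle 3 omitted, the siRNA counts became 0 and 14 in vehicle and 4 and 13 in dex. Of all genes 24.3% and 53.8% were then called. With dex 23 fell in siNON cells and 22 in siBCOR cells in that fit, beside 10.1% and 15.4% of all genes. Without siBCOR vehicle 2 alone the siRNA counts were 2 and 10 in vehicle and 7 and 8 in dex. Of all genes 20.9% and 42.2% were then called. With dex 23 fell in siNON cells and 19 in siBCOR cells, beside 9.18% and 10.3% of all genes.

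Across the 16 libraries the genes whose log2 CPM followed BCOR most closely, among 13429 genes ranked, were FGFR1 (Pearson r = 0.980), SEC31A (0.978), ZNF473 (0.977), CRIM1 (0.976) and TPRN (0.973). The libraries fall into siBCOR and siNON groups, and all points share that contrast. CRIM1 was at 56.00 ± 2.51 CPM (SD, n = 4) in siNON vehicle, 44.2 ± 1.29 in siNON dex, 24.3 ± 2.12 in siBCOR vehicle and 17.97 ± 2.45 in siBCOR dex. Among the other 9 genes of the complex RING1 came closest (0.906, rank 153), followed by KDM2B (0.309) and BCORL1 (0.236), and the remaining 6 had negative coefficients, down to -0.596 for USP7.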

How the data were processed

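The analysis used 16 poly(A) RNA libraries (4 groups of 4) and the BCOR peaks of 4 ChIP-seq libraries. The authors' deposited counts are whole reads over the exons of 65572 RefSeq transcripts on hg19, from HOMER without depth adjustment, per the file headers, which also give transcript lengths and copy numbers. Trimmomatic, TopHat2, FastQC, Bowtie 0.12.9, HOMER 4.10.3 and bedtools stand in the submitters' processing notes. The 3 deposited peak lists give positions, and their score is 0 for every peak; how replicates were combined for peak calling and the ChIP depth are not given in the sources used here.

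The 134 transcripts without a name (0.0664% of reads) were left out. Counts were filtered with filterByExpr, scaled by TMM and fitted with 4 group means in edgeR 4.0.16 (R 4.3.3; quasi-likelihood F tests, Benjamini-Hochberg over 16432 genes, threshold 0.05). CPM used the scaled library sizes and RPKM also the transcript length. Scripts were tested on simulated data. The alternatives were DESeq2 1.42.0, other scalings, no filter, the longest transcript, only the groups compared, a replicate block, and libraries left out. The series text speaks of 3 RNA replicates, 4 are labelled, and all were used. The most alike replicates differed by 2.44 times the sampling variance, so none was taken as a duplicate.

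The 10 genes and all lists were chosen with earlier results of these data known. The genes that may be named are the 10, up to 4 called genes per list and comparison with the smallest adjusted p, the hormone targets, and the 5 genes most like BCOR.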

Additional observations from a re-analysis of the deposited data

Results flagged for a closer look

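Each of the 40 sets of 4 libraries (10 genes in 4 groups) was screened for a library far from the other 3, which chance would flag in about 1 in 20 sets. BCORL1 in siNON dex was at 49.5 CPM in replicate 4, against 78.6 to 81.9 CPM in the other 3 libraries. RYBP in siNON vehicle was at 70.1 CPM in replicate 3, against 46.2 to 48.6 CPM in the other 3. Both values belong to libraries that also stood apart over all genes.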

How the results depend on the processing

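The replicate numbers did not pair the libraries: over 24 pairs with the same number the correlation of deviations from the group means ran from -0.526 to 0.503 (median -0.00709), 6 were over 0.1, and 4 of 16 libraries correlated best with a library of their own number. With a replicate block 4 of the 10 genes were called with dex in siBCOR cells (2 without it), and 1, 3, 4 and 0 in the other comparisons, as without it. With dex in siBCOR cells, DESeq2 called 4, the fit of only the groups compared 5, and the fit without siNON dex 4 and siNON vehicle 3 5. With the siRNA in dex, no scaling factors gave 7 and the omission of both libraries 8, and the interaction then gave 3. The alternatives other than leaving out 1 library called 3661 to 5646 of all genes with dex in siBCOR cells (3789 in the main fit). With the siRNA in dex they called 5954 to 8894 (6489 in the main fit). Leaving out 1 library gave 1 in every case with dex in siNON cells and 1 to 4 with dex in siBCOR cells. It gave 2 to 3 with the siRNA in vehicle, 2 to 8 with the siRNA in dex and 0 to 2 in the interaction. The same fits called 2532 to 4050 of all genes with dex in siNON cells and 2894 to 4541 with dex in siBCOR cells. With the siRNA they called 1810 to 3463 in vehicle and 4198 to 8170 in dex. Over all genes the interaction called 16, DESeq2 called 81, the other settings with all libraries 3 to 16, the fit without both libraries 1785, the fit without siNON dex 4 alone 2537, and fits without 1 other library 2 to 7. The siRNA comparison in vehicle gave 2809 calls over all genes, 1526 from only the groups compared and 1810 without siBCOR vehicle 1. The one in dex gave 6489, and 4198 without siNON dex 3. The cause of these changes was not tested.

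Estimates near 0 that were not called changed sign. These were YAF2 with dex in siNON cells with the block (0.0031), USP7 there without both libraries (0.0023), RING1 with dex in siBCOR cells with upper-quartile scaling (-0.037) and no filter (-0.016), KDM2B with the siRNA in vehicle without both libraries (-0.030), YAF2 there with the longest transcript (-0.085), PCGF1 with the siRNA in dex with upper-quartile scaling (-0.037) and without both libraries (-0.026), and RING1 in the interaction without both (0.00048). With 1 library left out the ranges of such estimates were, with dex in siNON cells, -0.022 to 0.11 (RING1), -0.26 to 0.024 (RYBP), -0.21 to 0.12 (YAF2) and -0.055 to 0.020 (USP7), and with dex in siBCOR cells -0.017 to 0.040 (RING1). With the siRNA in vehicle they were -0.030 to 0.11 (KDM2B), -0.011 to 0.14 (RNF2), -0.0057 to 0.16 (RYBP) and -0.056 to 0.20 (YAF2). With the siRNA in dex PCGF1 ran from -0.013 to 0.066, and in the interaction RING1 ran from -0.11 to 0.037.

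With the longest transcript YAF2 was at 0.55 RPKM (3.42 with the transcript of most reads) and SKP1 at 97.1 RPKM (129), which follows from the transcript taken. A window of 50 kb gave 8 genes with a peak. A stricter peak threshold could not be applied, since every score is 0. Among the genes of the other lists that the rule for names picked, 99 changes were called, and under the alternatives the call was kept in 2250 and lost in 126 of 2376 values, which belong to 17 of the changes, and 0 changed sign.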
